A study of Mus musculus with 6 samples.

Results

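Genes of the heat shock response, of protein folding in the endoplasmic reticulum (ER) and of the integrated stress response were examined in brain RNA of mice given 4-aminopyridine and of control mice. The 40 genes were taken from a list of symbols, matched to the 55604 gene identifiers of the count tables, and all 40 were found. They fall into 3 arms: 14 heat shock genes (11 cytosolic or nuclear and 3 mitochondrial chaperone genes), 16 ER genes, and 10 genes of the integrated stress response, most of them targets of the transcription factor ATF4. A filter on low counts left 38 of the 40 in the fit (13, 16 and 9 by arm), among 11388 genes tested. Bag3 and Trib3 had too few counts and are described by their counts.

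The 6 libraries came from brain of C57BL/6 mice, 3 after an intraperitoneal injection of 4-aminopyridine (4-AP), a blocker of voltage-gated potassium channels that was used to bring on status epilepticus, and 3 from untreated mice. No genetic change or further agent is named for either group, and the labels give no age, sex, brain region or time between injection and sampling. All 6 RNA samples had been digested with RNase R, an exonuclease that removes linear RNA and spares circles, so the counts of a gene combine its circular RNA with the linear RNA that was left. Fewer cells of a type and less RNA per cell cannot be told apart in such bulk samples, and the labels do not say whether each library came from a separate animal, so the p-values measure the spread between these libraries.

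Cells meet misfolded proteins with separate programmes. In the cytosol, heat shock factor 1 (HSF1) induces the Hsp70, Hsp90 and Hsp40 chaperones and their partners through heat shock elements in their promoters. In the ER, the sensors ATF6, IRE1 and PERK raise chaperones, folding enzymes and degradation factors; IRE1 acts by splicing the RNA of Xbp1. PERK and 3 further kinases phosphorylate the initiation factor eIF2 alpha, which lowers protein synthesis but favours translation of ATF4, whose targets include Ddit3, Trib3, Asns, Chac1 and Sesn2. Heat shock proteins, above all the inducible Hsp70, are well known as markers of stressed neurons and glia after prolonged seizures. Splicing of Xbp1 and translation of Atf4 are not seen in counts of reads per gene.

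The arms differ in the sequence of their promoters; the genes were not chosen by promoter sequence, although several are textbook carriers of the elements searched. RefSeq promoter windows (GRCm38.p6, the build also called mm10; 250 bases before and 50 after a transcription start) were at hand for 33 of the 40 genes. Hmox1, Hsp90aa1, Hsp90ab1, Hspa8, Hspa9, Hyou1 and Manf had none in the table. Each motif was searched on both strands. The ER stress response element, CCAAT and then CCACG with 9 bases between them, was found in 7 of 14 ER genes with a window (Hspa5, Hsp90b1, Calr, Canx, Creld2, Dnajc3 and Pdia6), and in 37 of all 27025 genes with a window (0.137%). The shorter ER stress response element II, ATTGG and then CCACG with 1 base between them, lay in Herpud1 and Dnajb11 and in 0.0444% of all genes. A heat shock element, 3 alternating GAA and TTC units that start with either and have 2 bases between neighbours (forms that overlap in a longer array), was found in Hspd1, Hspe1 and Hsph1, 3 of 10 heat shock genes with a window, and in 0.662% of all genes. Hspa1a, Hspa1b, Hspa4, Dnajb1, Dnajb5, Hspb8 and Bag3 had a window without a match. Only exact matches inside the window were counted, so a gene without a match may still carry an element. The C/EBP-ATF element TGATGNAA, the core of the site that ATF4 binds with C/EBP partners, was found in Asns, Chac1 and Trib3, 3 of 9 genes of the integrated stress response, in the ER gene Herpud1, and in 4.51% of all genes. A match describes the letters and is not evidence of a bound factor.

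**Figure D1:**
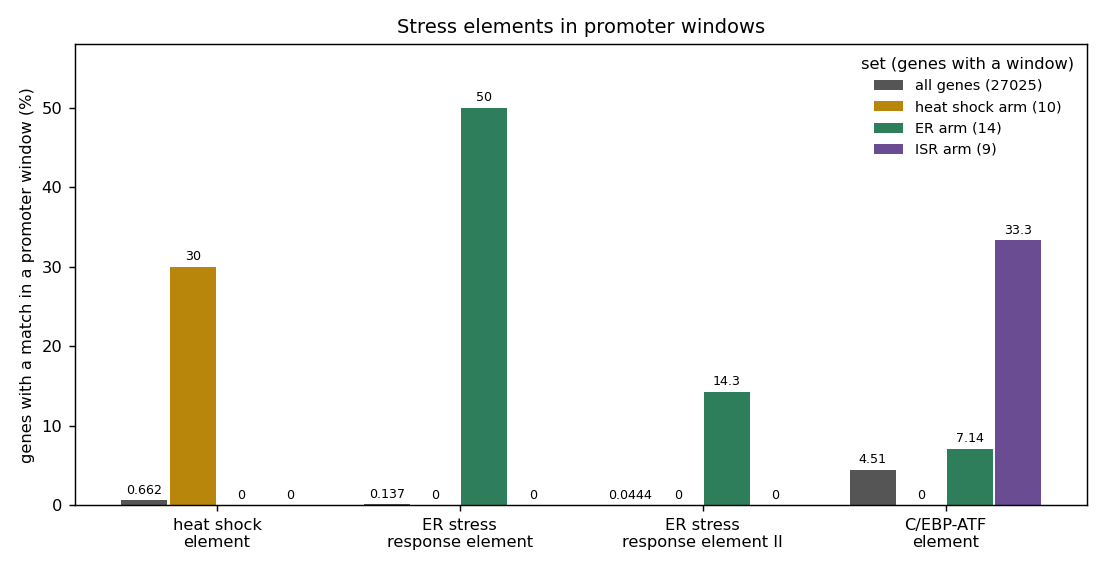
Share of genes (y axis, percent) with a match to each of 4 stress elements (x axis) in a RefSeq promoter window, for all 27025 genes with a window (grey) and for the heat shock (10 genes), ER (14) and integrated stress response (9) arms. The ER stress response element stands in 50% of the ER arm, 0.137% of all genes and in no gene of the other arms.

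The sequences below are the elements with their flanks, since they show what the genes of an arm have in common. Each is written 5' to 3' on the strand of its gene, and the capitals mark the letters that the motif fixes. Coordinates span the whole stretch with its flanks, while positions from the start are those of the element alone. In Hspa5, the gene of the ER Hsp70 BiP, the stretch is chr2:34772020-34772048 (plus strand, GRCm38). Its element lies between positions -65 and -47 from the RefSeq start. The GENCODE M21 model of Hspa5 starts before this stretch, at 34771970. The other stretches with an ER stress response element are those of Hsp90b1 (chr10:86705518-86705566, minus strand), Calr (chr8:84847060-84847108, minus), Canx (chr11:50325785-50325833, minus), Creld2 (chr15:88819505-88819553, plus), Dnajc3 (chr14:118937812-118937860, plus) and Pdia6 (chr12:17266476-17266524, plus). In Hsp90b1, Calr and Creld2 the element reads in the reverse direction, as CGTGG and then ATTGG, and Hsp90b1 has a second, forward copy between positions -212 and -194. Herpud1 carries the element II (chr8:94386362-94386402, plus).
Hspa5: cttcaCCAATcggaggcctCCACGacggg
Hsp90b1: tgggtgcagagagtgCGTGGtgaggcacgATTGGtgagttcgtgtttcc
Calr: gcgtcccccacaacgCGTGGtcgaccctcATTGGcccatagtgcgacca
Canx: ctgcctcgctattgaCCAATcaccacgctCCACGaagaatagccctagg
Creld2: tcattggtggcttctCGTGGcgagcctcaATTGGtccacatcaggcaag
Dnajc3: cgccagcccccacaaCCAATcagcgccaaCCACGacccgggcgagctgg
Pdia6: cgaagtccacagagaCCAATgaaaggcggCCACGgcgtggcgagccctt
Herpud1: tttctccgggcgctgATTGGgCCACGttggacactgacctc

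The mitochondrial chaperonin genes Hspd1 and Hspe1 are head-to-head neighbours on chromosome 1 and share their heat shock element, shown here on the strand of Hspe1 (chr1:55088054-55088076, plus). For the integrated stress response, the C/EBP-ATF element of Chac1 (chr2:119351034-119351071, plus; reverse direction) and that of Asns (chr6:7693220-7693237, minus) are shown.
Hspe1: gtccgTTCtaGAAccTTCcggaa
Chac1: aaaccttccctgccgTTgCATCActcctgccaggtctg
Asns: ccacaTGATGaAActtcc

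The libraries held between 1507882 and 3409055 counts, and 3 counts, used as a floor, corresponded to between 0.778 and 2.19 CPM (counts per 1000000 counts of the library, whose size was scaled by trimmed mean of M-values). The tissue label was checked against neuronal markers fixed with the gene lists: the 7 markers summed to between 2072 and 2928 CPM in every library, with Snap25 at 665 CPM in 4-AP and 807 CPM in control brain. Immediate early genes, which neurons switch on within minutes of strong firing, summed to between 481 and 631 CPM in the 4-AP libraries and between 899 and 1530 CPM in the controls; all 11 tested lay below 0 and 2 were called lower.

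No gene of the 3 arms was called different between 4-AP and control brain. At an adjusted p under 0.05 (edgeR's quasi-likelihood fit, Benjamini-Hochberg over all genes), 0 of the 38 tested were higher and 0 lower. Of all genes tested, 0.334% were called higher and 0.509% lower, or 0.843% in either direction, so that a count of 0 among 38 is near the background. limma-voom also called 0 of the 38, and DESeq2 called 0 of the 18 to which it gave an adjusted p; the other 20 got none. At an unadjusted p under 0.05 there were 0 genes higher and 2 lower (5.26% of the 38), namely Hsp90ab1 and Hyou1, against 6.29% higher and 7.57% lower of all genes, or 13.9% together. In 5 genes (13.2%) the 3 4-AP libraries lay on one side of the 3 controls: Hsp90ab1, Hyou1 and Chac1 were lower and Hspa9 and Dnajb9 higher. Of all genes, 10.4% lay lower and 8.36% higher in this way, or 18.8% together. The smallest adjusted p among the members was 0.226, for Hsp90ab1.

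The median fitted log2 fold change (4-AP over control) was -0.03 for the heat shock arm, with 6 genes above and 7 below 0. That arm pools 10 tested cytosolic genes (median -0.12, 3 above and 7 below) with 3 mitochondrial ones (median 0.23, 3 above and 0 below). The median was 0.08 for the ER arm (9 above, 7 below) and 0.06 for the integrated stress response (7 above, 2 below). Over all 11388 genes the median was -0.01, with 51% of genes below 0. Scaling by total counts alone, which moves the median of all genes to -0.22, put the 3 arm medians at -0.24, -0.14 and -0.16, so the directions here are relative to the bulk of genes. The curves of the arms cross that of all genes near 0 in the plot of cumulative shares, and no arm holds a value outside -0.67 to 0.98.

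**Figure D2:**
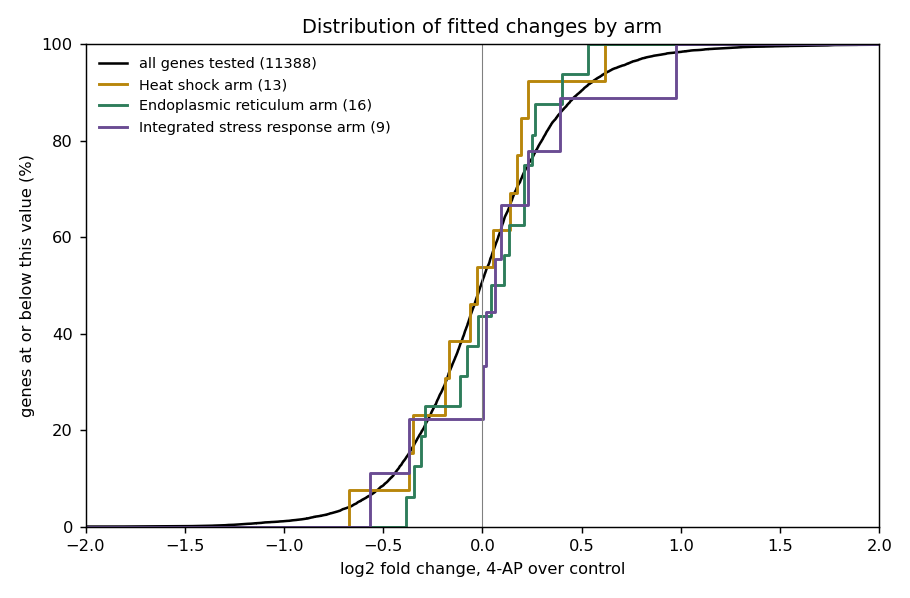
Cumulative share of genes (y axis, percent) at or below each fitted log2 fold change of 4-AP over control (x axis) for all 11388 genes tested (black) and the heat shock (13 genes), ER (16) and integrated stress response (9) arms. The arm medians of -0.03, 0.08 and 0.06 lie close to the -0.01 of all genes. At 0 the curves of the arms stand at 53.8%, 43.8% and 22.2%, and that of all genes at 51%.

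The intervals bound the size of change in these counts, which mix circular with remaining linear RNA after RNase R. They do not bound the change of the transcripts in untreated tissue. The approximate 95% interval of the fold change, taken gene by gene, ended below a 2-fold rise in 31 of the 38 genes and below a 1.5-fold rise in 24. In 28 genes it lay wholly within a 2-fold change in either direction. The 7 genes whose interval reached past a 2-fold rise were Hmox1, Dnajb9, Hspe1, Ddit3, Hspa1a, Sdf2l1 and Creld2, each with a mean of under 30 counts per control library. For these a 2-fold rise was within the error at this depth.

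**Figure D3:**
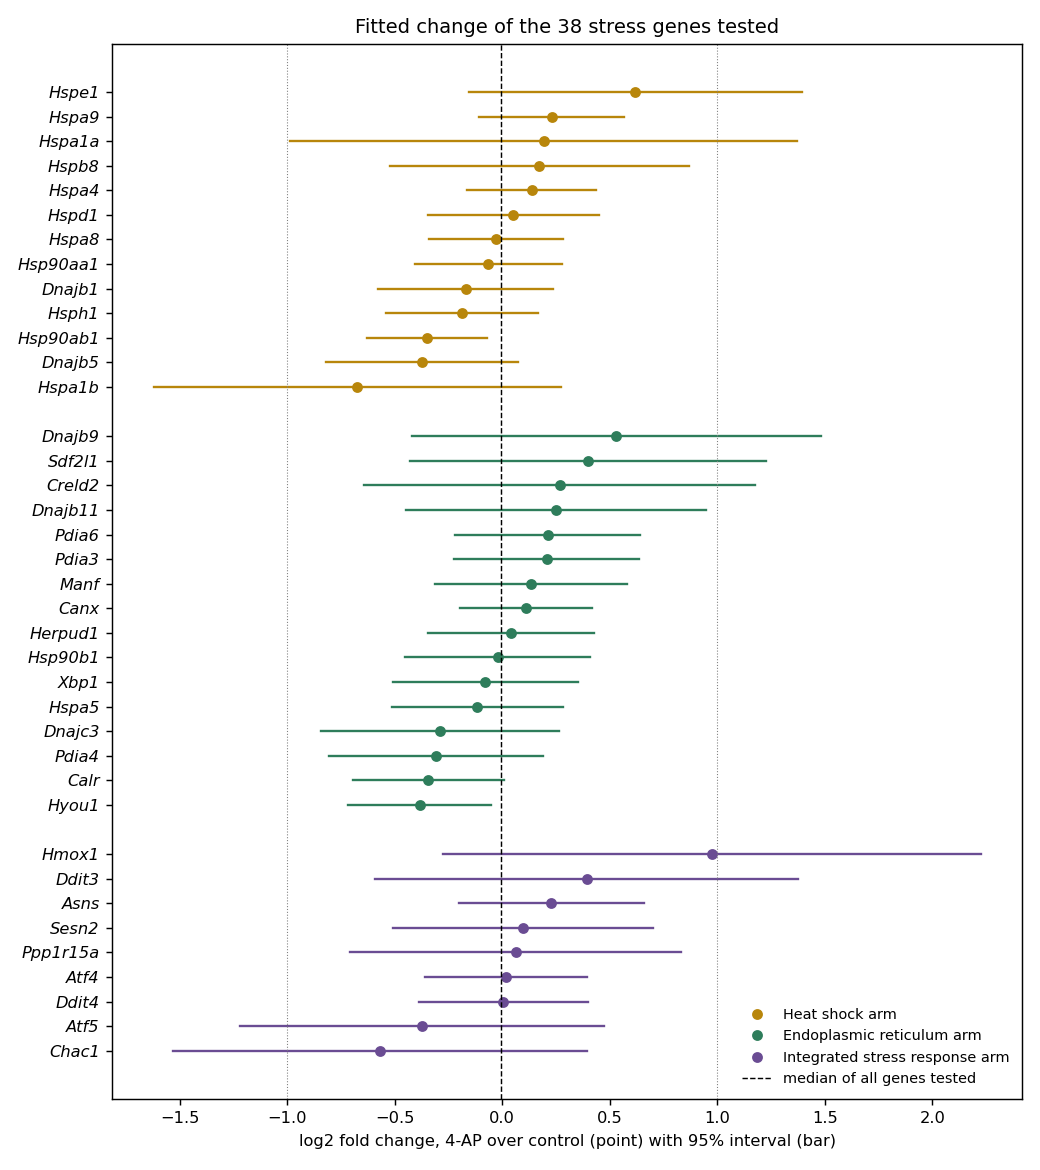
Fitted log2 fold change (point) and approximate 95% interval (bar) of the 38 stress genes tested, ordered by value within each arm; the dashed line is the median of all 11388 genes and the dotted lines mark a 2-fold change. Only the bars of Hsp90ab1 and Hyou1 leave out 0, and that of Hmox1 is the widest to the right.

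Levels per length of exon were compared within control brain, where the ranges of the 3 arms overlapped. Hspa8, which encodes the constitutive cytosolic Hsp70 (Hsc70), was the highest at 177 ± 30.5 CPM per kilobase (SD, n = 3), followed by Hsp90ab1, the constitutive cytosolic Hsp90, at 135 ± 5.89. The ER lectin chaperone genes Canx and Calr came next at 59.3 ± 6.49 and 51.4 ± 7.54 CPM per kilobase, and then Hsp90aa1, the inducible cytosolic Hsp90, at 48.9 ± 10.3. Of the integrated stress response, Ddit4 and Atf4 stood highest, at 39.1 ± 9.03 and 35.2 ± 3.13. The median level was 17.3 CPM per kilobase in the heat shock arm, 12.2 in the ER arm and 4.24 in the integrated stress response in control brain, and 15.8, 12.2 and 4.27 in 4-AP brain. In the order of all 40 genes, 32 of the 39 pairs of neighbours overlapped between control libraries; Hspa8 and Hsp90ab1, and Hsp90ab1 and Canx, did not. These are levels in RNase R-treated RNA and mix circular with remaining linear RNA, so they do not rank the transcripts of untreated tissue.

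**Figure D4:**
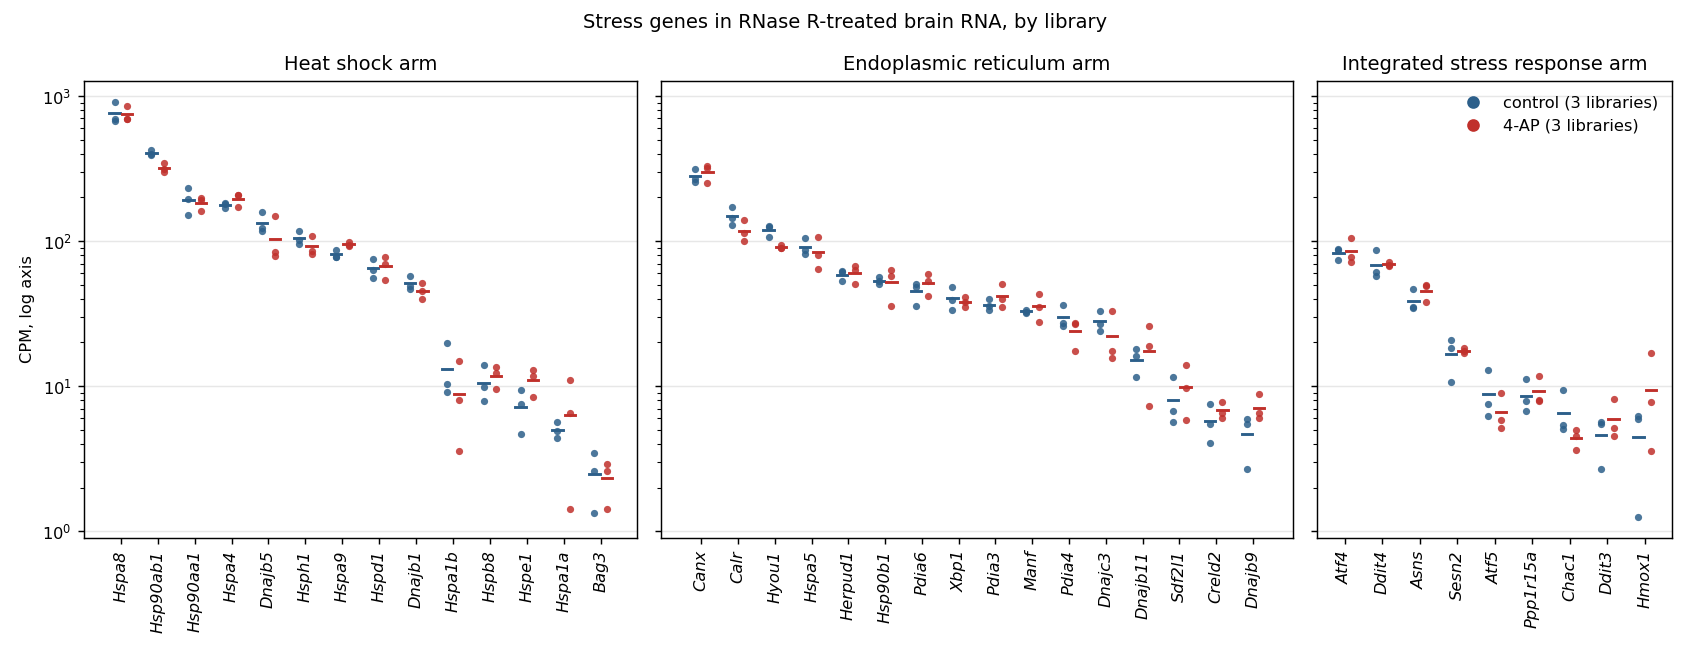
CPM of each stress gene (log axis) in the 3 control (blue) and 3 4-AP libraries (red), with the group means as bars, ordered by the control mean within each arm; Trib3, at 0 counts in most libraries, is not drawn. The 2 groups overlap in most genes, and Hsp90ab1 and Hyou1 show 3 red points below 3 blue ones.

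Among the cytosolic heat shock genes, Hspa8 was level between the groups. It had 692, 852 and 691 CPM in the 4-AP libraries and 672, 911 and 697 CPM in the controls. In both groups the second replicate was the highest and the groups overlapped throughout. Its log2 fold change was -0.03 (SE 0.15, 95% interval -0.34 to 0.28).

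The inducible Hsp70 genes Hspa1a and Hspa1b lie 9951 bases apart on chromosome 17 (34969190 to 34972156 and 34956436 to 34959238, both on the minus strand). Each has a single exon, and their coding sequences are 99.5% identical, with one identical run of 638 bases, so reads can be split between them or lost and each value alone is uncertain. Hspa1a had 6.52, 1.43 and 11 CPM in the 4-AP libraries and 5.66, 4.41 and 4.91 CPM in the controls. Hspa1b had 15, 3.57 and 8.04 CPM in the 4-AP libraries and 9.11, 19.7 and 10.3 CPM in the controls. The 2 genes summed, a choice made after seeing the data, gave 21.5, 5.0 and 19 CPM in 4-AP brain and 14.8, 24.1 and 15.2 CPM in control brain. The lowest sum, in 4-AP replicate 2, rested on 14 counts, and the highest, in control replicate 2, on 93. The other 4 libraries lay between 14.8 and 21.5 CPM, 4-AP libraries included. The summed log2 fold change was -0.37 (SE 0.42), and its 95% interval ended at a 1.45-fold rise. Summing restores reads split between the 2 genes but not reads lost from both, so this bound covers only the reads that were counted. The log2 fold change of Hspa1a, 0.19 (SE 0.57) over all libraries, was -0.49 when 4-AP replicate 3 was left out and 0.82 when 4-AP replicate 2 was. That of Hspa1b, -0.67 (SE 0.45), was -1.31 when 4-AP replicate 1 was left out, -0.17 when 4-AP replicate 2 was and -0.18 when control replicate 2 was.

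Hsp90ab1 had the lowest p of all members. It stood at 316, 299 and 343 CPM in the 4-AP libraries and at 426, 400 and 392 CPM in the controls, so that the highest 4-AP library was below the lowest control. The log2 fold change was -0.35 (SE 0.13, 95% interval -0.63 to -0.07; edgeR unadjusted p = 0.0169 and adjusted p = 0.226), and it did not pass. Its inducible relative Hsp90aa1, whose coding sequence is 76.4% identical, had 192, 198 and 161 CPM in 4-AP brain and 150, 231 and 196 CPM in control brain. These groups overlapped, with a log2 fold change of -0.07 (SE 0.16).

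Markers of cortical excitatory neurons moved in the same direction as Hsp90ab1. Their 7 members, none of them at 0, summed to between 1263 and 1848 CPM in the 4-AP libraries and between 2344 and 2424 CPM in the controls, 7 of 7 lay below 0, and 3 of them passed the test. The 7 general neuron markers summed to between 2072 and 2450 CPM in 4-AP brain and between 2542 and 2928 CPM in control brain. The sum of the 8 astrocyte markers was also lower, at 1581 to 1975 CPM in 4-AP and 2251 to 2380 CPM in control brain. Most of it was Slc1a2 (1132 against 1748 CPM), which was called lower, while 6 of the 8 lay above 0 and 2 below. Of the hypothalamic markers (9 listed, 4 tested), 3 were called higher, while Pomc was at -0.60 (SE 1.14). The 9 summed to 44.3 to 68.7 CPM in 4-AP brain and 0.893 to 17 CPM in control brain. Pomc alone made 14.5 CPM of the highest control sum, in control replicate 1. Oxt, Hcrt and Sim1 were at 0 in all controls. The genes called were Oxt, Avp and Trh, and each passed the filter only through its 4-AP counts. In the controls Avp had 0, 3 and 0 counts and Trh had 3, 10 and 1. The part of these differences in the values of the stress genes was not tested.

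The Hsp40 co-chaperones Dnajb1 and Dnajb5 deliver substrates to Hsp70. Dnajb5 had 78.9, 84.0 and 148 CPM in the 4-AP libraries and 158, 117 and 124 CPM in the controls. Of the 4-AP libraries, 2 lay below all controls and replicate 3 among them. Its log2 fold change was -0.37 (SE 0.21), and -0.71 without 4-AP replicate 3. Dnajb1 was at 51.5, 39.7 and 45.3 CPM against 49.0, 46.9 and 57.1 CPM in the controls, a log2 fold change of -0.17 (SE 0.20).

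The remaining cytosolic genes also overlapped between the groups. Hspa4 and Hsph1, Hsp110-type exchange factors that release ADP from Hsp70, had log2 fold changes of 0.14 (SE 0.14) and -0.19 (SE 0.17). Hspa4 was at 171, 209 and 206 CPM in 4-AP brain and 170, 181 and 183 CPM in control brain. Hspb8, a small heat shock protein, was at 0.17 (SE 0.33), from 11.8 ± 2.10 against 10.6 ± 3.14 CPM (SD, n = 3 each). Bag3, which joins Hspb8 and Hsp70 in selective autophagy, had 4 counts in each 4-AP library and 11, 10 and 3 in control brain, too few for the fit.

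In the mitochondrial matrix, Hspd1 (Hsp60) and Hspe1 (Hsp10) form the chaperonin, and Hspa9 (mortalin) pulls proteins through the inner membrane. Hspa9 was one of the 2 members with every 4-AP library above every control, at 91.9, 97.9 and 94.3 CPM against 77.9, 87.1 and 77.2 CPM. The difference was small, with a log2 fold change of 0.23 (SE 0.16; edgeR adjusted p = 0.586). Hspe1 had 8.48, 12.9 and 11.7 CPM against 4.71, 9.34 and 7.59 CPM, a log2 fold change of 0.62 (SE 0.37). Hspd1, which lies beside it, was at 0.05 (SE 0.19). The gene models of Hspd1 and Hspe1 overlap by a small stretch, 4.24% of the exonic bases of Hspd1, and several pseudogenes carry each name (5 for Hspd1 and 6 for Hspe1), so reads of both may have been lost or shared.

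In the ER arm, Hspa5, the Hsp70 chaperone BiP that also holds the ER stress sensors inactive, overlapped between the groups. It had 63.9, 106 and 80.4 CPM in the 4-AP libraries and 86.4, 105 and 81.2 CPM in the controls, a log2 fold change of -0.12 (SE 0.19, 95% interval -0.51 to 0.28). Hsp90b1 (Grp94), the ER Hsp90, followed it with 35.9, 63.2 and 57.0 CPM against 52.8, 56.5 and 50.4 CPM and a log2 fold change of -0.02 (SE 0.21). In both genes 4-AP replicate 1 was the lowest and 4-AP replicate 2 the highest of the 4-AP libraries.

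Hyou1 (Grp170), the exchange factor and large Hsp70 relative that works with BiP, was lower in 3 of 3 4-AP libraries. It had 94.5, 90.0 and 89.9 CPM in 4-AP brain and 127, 106 and 125 CPM in control brain. The log2 fold change was -0.38 (SE 0.16, 95% interval -0.72 to -0.05; edgeR unadjusted p = 0.0247 and adjusted p = 0.268), and it did not pass. Leaving out each library in turn kept it between -0.45 and -0.33. The neuron markers given beside Hsp90ab1 moved the same way as Hyou1, and their part in its values was not tested. Of the 38 members tested, 16 lay below 0 and 22 above.

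The lectin chaperones calreticulin (Calr) and calnexin (Canx) bind glycoproteins during folding and stood on different sides of 0. Calr had 114, 99.3 and 140 CPM in the 4-AP libraries and 143, 172 and 129 CPM in the controls, a log2 fold change of -0.34 (SE 0.17, unadjusted p = 0.0537 by edgeR's test). One 4-AP library, replicate 3, reached into the control range. Canx had 329, 321 and 251 CPM against 266, 313 and 257 CPM, a log2 fold change of 0.11 (SE 0.15). The difference between the 2 genes was not tested.

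Protein disulfide isomerases make and rearrange disulfide bonds in the ER. Pdia3, which works with the lectin chaperones, and Pdia6 were both at 0.21 (SE 0.21 each) on the log2 scale, and Pdia4 was at -0.31 (SE 0.24). Pdia4 had 26.7, 27.2 and 17.5 CPM in the 4-AP libraries and 25.8, 36.3 and 27.2 CPM in the controls, with 2 of the 4-AP libraries inside the control range. None of the 3 passed.

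The ER-resident Hsp40 genes lay on both sides of 0. Dnajb9 (ERdj4), a partner of BiP in degradation and in the control of IRE1, was higher in every 4-AP library, at 6.52, 6.07 and 8.77 CPM against 5.97, 5.45 and 2.68 CPM. Those values rest on 10, 17 and 12 counts against 19, 21 and 6, and the log2 fold change of 0.53 (SE 0.46) did not pass. Dnajc3 (p58IPK) had 15.6, 32.9 and 17.5 CPM in 4-AP brain and 26.7, 32.9 and 24.1 CPM in control brain. Its log2 fold change of -0.29 (SE 0.27) became -0.74 without 4-AP replicate 2. Dnajb11 (ERdj3) had the largest coefficient of variation of the ER arm among 4-AP libraries, 54.3%, at 18.9, 26.1 and 7.31 CPM against 16, 17.9 and 11.6 CPM in the controls, and its value went from 0.25 (SE 0.33) to -0.18 without 4-AP replicate 2.

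Sdf2l1, a cofactor of BiP cycles, and Creld2, an ER stress-inducible folding factor, had few reads and log2 fold changes of 0.40 (SE 0.40) and 0.27 (SE 0.44). Manf, an ER protein that is secreted and known for protecting neurons, was at 35.2, 43.2 and 27.8 CPM in the 4-AP libraries and 33.6, 32.7 and 32.1 CPM in the controls. The controls lay close together while the 4-AP libraries stood on both sides of them, and the log2 fold change was 0.13 (SE 0.21). Herpud1, which brings misfolded proteins to ER-associated degradation, was at 0.04 (SE 0.19). Xbp1, the transcription factor whose RNA is spliced by IRE1, was at -0.08 (SE 0.21), with 38.1 ± 2.95 CPM in 4-AP and 40.3 ± 7.23 CPM in control brain (SD, n = 3 each).

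The 9 ER genes with an ER stress response element of either kind, among them the 8 whose sequences are given above and Dnajb11, had a median log2 fold change of 0.04, with 5 above and 4 below 0. The 5 ER genes whose window held none had a median of 0.21, with 3 above and 2 below. Both sets span 0, from -0.34 to 0.27 and from -0.31 to 0.53.

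In the integrated stress response, Atf4 itself was level. It had 77.6, 71.8 and 105 CPM in the 4-AP libraries and 87.7, 86.9 and 74.5 CPM in the controls, with the highest value in 4-AP replicate 3. Its log2 fold change was 0.02 (SE 0.18, 95% interval -0.36 to 0.39). Ddit4 (REDD1), an inhibitor of mTORC1 signalling that also answers to glucocorticoids and low oxygen, had 67.1, 68.2 and 71.6 CPM against 86.7, 61.5 and 57.6 CPM. Its 3 4-AP values lay inside the control range, and the log2 fold change was 0.004 (SE 0.19). Asns (asparagine synthetase) was at 49.5, 49.0 and 38 CPM against 34.9, 46.9 and 34.8 CPM, a log2 fold change of 0.23 (SE 0.21).

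The weakly counted members of this arm include its best known stress markers. Ddit3, which encodes the pro-apoptotic factor CHOP, had 7, 23 and 7 counts in 4-AP brain and 18, 21 and 6 in control brain. In CPM these were 4.56, 8.22 and 5.12 against 5.66, 5.45 and 2.68, a log2 fold change of 0.39 (SE 0.47). A second annotated identifier of the same symbol shares 10.9% of its exonic bases and had 0 counts in all libraries. Trib3, a pseudokinase induced by ATF4 and CHOP, had 1 count in 4-AP replicate 1, 3 in control replicate 2 and 0 in the other 4 libraries, so no change in it was detectable.

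Chac1, which degrades glutathione and is a sensitive ATF4 target, was lower in every 4-AP library. It had 4.56, 5.0 and 3.65 CPM in 4-AP brain and 5.03, 9.34 and 5.36 CPM in control brain. The highest 4-AP value and the lowest control value were nearly equal, the 4-AP values rest on 7, 14 and 5 counts, and the log2 fold change of -0.57 (SE 0.46) did not pass. It became -0.19 without control replicate 2.

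Of the other members, Atf5, a relative of Atf4, had 5.87, 8.93 and 5.12 CPM against 12.9, 7.52 and 6.25 CPM (log2 fold change -0.37, SE 0.41). Sesn2 (sestrin 2), which damps mTORC1 when amino acids are short, was at 0.09 (SE 0.29). Its 4-AP libraries, at 17.6, 16.8 and 18.3 CPM, were closer together than the controls at 20.7, 10.6 and 18.3 CPM. Ppp1r15a (GADD34), the phosphatase subunit that reverses the phosphorylation of eIF2 alpha, was at 0.06 (SE 0.37).

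Hmox1 had the largest fitted difference of the 38 genes. It encodes heme oxygenase 1, which breaks down heme and is induced by the oxidative stress factor NRF2. There were 7.82, 3.57 and 16.8 CPM in the 4-AP libraries and 1.26, 5.97 and 6.25 CPM in the controls. Its groups overlapped, since 4-AP replicate 2 was below 2 of the controls. The log2 fold change was 0.98 (SE 0.59, 95% interval -0.27 to 2.23; edgeR adjusted p = 0.514), on 12, 10 and 23 counts against 4, 23 and 14. It was 0.28 when 4-AP replicate 3 was left out and 1.47 when 4-AP replicate 2 was. Blood cell markers summed to 13.2 to 27.8 CPM in 4-AP and 12.9 to 23.1 CPM in control brain, with 3 of the 5 tested and none called, and the 7 microglia markers to 454 to 558 CPM against 383 to 443 CPM, with 4 above and 3 below 0, a median of 0.04 and none called. Without Cx3cr1, the most abundant of them, the other 6 summed to 126 to 168 CPM in 4-AP and 132 to 164 CPM in control brain. The part of these markers in the values of Hmox1 was not tested.

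The arms did not separate the 2 groups of libraries. The median of the ER arm, as log2 CPM relative to the control mean of each gene, was 0.22 in 4-AP replicate 2 and 0.15 in control replicate 2. It was between -0.12 and -0.05 in the other 4 libraries. Those 2 libraries are also the deepest of their groups, with 2721287 and 3409055 counts; the part of depth was not tested. Without 4-AP replicate 2 the median log2 fold change of the ER arm was -0.08, and without control replicate 2 that of the heat shock arm was 0.13. In the integrated stress response the 3 4-AP libraries lay between 0.02 and 0.09, inside the controls at -0.22 to 0.28.

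**Figure D5:**
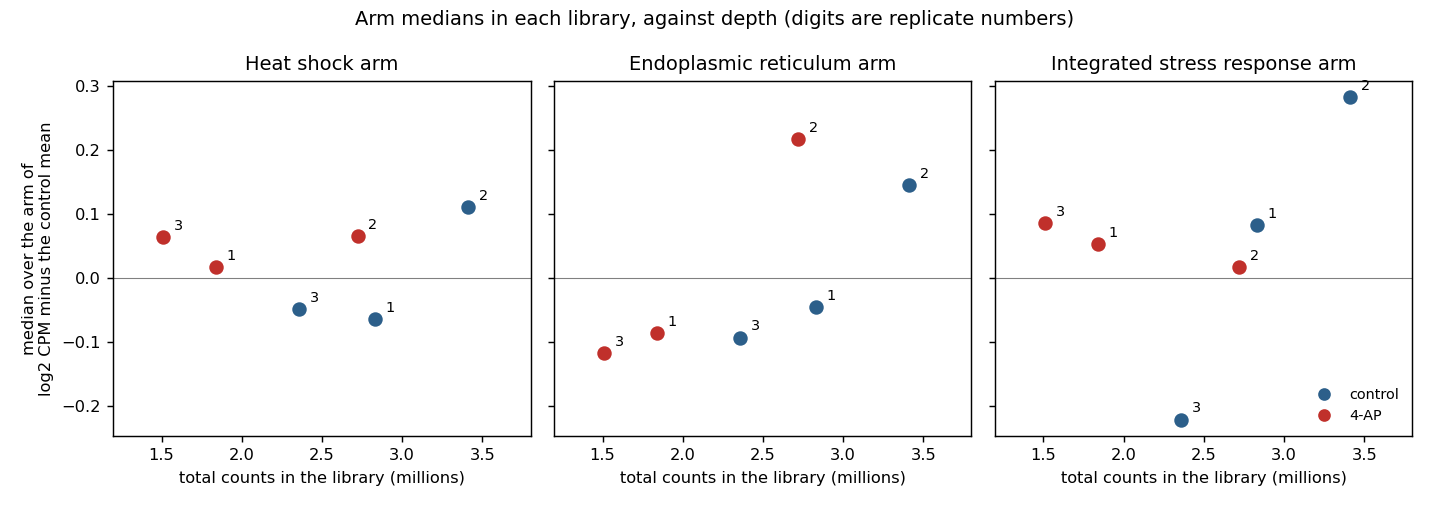
Median over each arm of log2 CPM minus the control mean of the gene (y axis) against total counts per library (x axis, in units of 1000000 counts), for 3 control (blue) and 3 4-AP libraries (red); digits are replicate numbers. In the ER arm replicate 2 of each group stands highest, at 0.22 and 0.15, and no arm separates red from blue.

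Spread between libraries is set here beside the counting error. In control brain Hspa8 varied by 17.3% (coefficient of variation) where its counts alone allow 2.04%. Hmox1 varied by 62.4% where counting allows 27.1%, and Hspa1a by 12.6% where it allows 25.5%. Among 4-AP libraries Hspa1a varied by 75.7% where counting allows 32.2%, and Hmox1 by 71.9% where it allows 25.8%. The median coefficient of variation was 15.5% in the heat shock arm, 15.5% in the ER arm and 31.9% in the integrated stress response in controls, and 16%, 19.5% and 21.1% in 4-AP brain.

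Other genes of the same pathways were followed on 6 further lists with 168 genes, of which 152 were tested. Of these 0 were called higher and 1 lower, and 81 lay above and 71 below 0. The sensors, kinases and transcription factors (26 tested, median -0.02) had no call in either direction. Eif2ak3, the gene of PERK, was at 13.1 ± 3.23 CPM in 4-AP and 21.5 ± 0.927 CPM in control brain (SD, n = 3 each). Its fitted difference was -0.68 (SE 0.27; edgeR adjusted p = 0.238), and the heme-regulated kinase gene Eif2ak1 was at -0.55 (SE 0.25). The eIF2B subunit genes Eif2b2 (0.64, SE 0.28) and Eif2b3 (0.89, SE 0.45) had the smallest p of those above 0.

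Of 40 further cytosolic chaperones and co-chaperones tested, 0 were called and the median was 0.02. The chaperonin subunit Cct4 was at 0.56 and the Hsp70-Hsp90 adaptor Stip1 at 0.34, Bag6 at -0.48 and Hspa12a at -0.33. Among 7 further mitochondrial quality control genes, Clpp (0.52), Trap1 (0.12), Dnaja3 (-0.25) and Lonp1 (-0.15) had the smallest p in their direction and did not pass.

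In the list of ER folding and degradation genes (39 tested, median 0.03) Sil1, which encodes the nucleotide exchange factor of BiP, came nearest to a call. It was at 63.7 ± 17.1 CPM in 4-AP and 35.3 ± 3.01 CPM in control brain (SD, n = 3 each), with every 4-AP library above every control. The fitted difference was 0.83 (SE 0.21; edgeR adjusted p = 0.0593) on the log2 scale. Its adjusted p was 0.0175 by DESeq2, 0.0202 with no filter on low counts, 0.0337 with the replicate block and 0.0321 by edgeR without 4-AP replicate 2; over the other settings it ran from 0.052 to 0.317, the last without 4-AP replicate 3. Wfs1, an ER membrane protein of Wolfram syndrome, was at 0.46 (SE 0.18), and Ssr3 (-0.36) and Os9 (-0.21) had the smallest p of those below 0.

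Of 29 further ATF4 targets tested, with a median of 0.03, 15 lay above and 14 below 0. At an unadjusted p under 0.05 by edgeR's test, 2 were higher and 3 lower, against 6.29% and 7.57% of all genes. After adjustment 0 were called higher and 1 lower, against 0.334% and 0.509% of all genes. This gene, Jdp2, fell. It encodes an AP-1 family repressor rather than an enzyme of amino acid supply, and its log2 fold change was -1.16 (SE 0.24; edgeR adjusted p = 0.0206), from 33.7 ± 1.4 to 15 ± 2.97 CPM (SD, n = 3 each). It did not pass when 4-AP replicate 1 was left out (edgeR adjusted p = 0.0904), nor without 4-AP replicate 3 (0.0577), control replicate 2 (0.0759) or control replicate 3 (0.0678); DESeq2 gave no adjusted p for it. The cationic amino acid transporter Slc7a1 was at -0.74 (SE 0.22), and the proline and serine synthesis genes Aldh18a1 and Psat1 were at 0.53 (SE 0.22) and 0.32 (SE 0.15).

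Targets of NRF2, the factor that also controls Hmox1, were mostly above 0: 9 of 11 tested, with a median of 0.28, where 51% of all genes lay below 0. None was called, and the list was chosen with earlier results known. Prdx1, a peroxidase, had a log2 fold change of 0.63 (SE 0.25), with every 4-AP library above every control, and G6pdx, the entry enzyme of the pentose phosphate pathway, was at 0.73 (SE 0.32). Txnrd1 was at -0.12 and Ftl1 at -0.01. The 13 listed genes summed to between 813 and 898 CPM in 4-AP and between 767 and 812 CPM in control brain, so the lowest 4-AP library and the highest control nearly touched. The largest part of this sum was Sqstm1, with a mean of 488 CPM in 4-AP and 472 CPM in control brain. Its log2 fold change was 0.05 (SE 0.14).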

How the data were processed

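For each of the 6 libraries the authors deposited raw, unnormalized counts of reads by gene. Reads had been aligned to mm10 with STAR 2.5.3a and counted with featureCounts, per the submitters' processing notes; annotation release, strand setting and handling of reads with several hits: not given in the sources used here. Reads of overlapping, antisense or near-identical genes may therefore be mixed. None of the 40 members overlapped another gene over more than 20% of its exons, and 27 had no overlap.

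Identifiers were matched without version to GENCODE M21, of the same build: 54809 of 55604 matched, and the others held 0.00715% of counts. Coordinates are 1-based. Groups came from the sample titles. Each pair of libraries differed by more than counting error, and the smallest chi-square, divided by its degrees of freedom, was 8.51. That pair crossed the groups: 4-AP replicate 2 and control replicate 3. Control replicate 3 was at 8.88 from 4-AP replicate 3 and 21.15 from 4-AP replicate 1. From control replicates 1 and 2 it was at 26.35 and 25.42, while those 2 were at 9.58 from each other. These chi-squares were taken on raw counts and grow with the depth of the libraries, so they do not rank pairs of unlike depth by distance. The part of control replicate 3 in the group differences was not tested by this measure.

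The filter on low values was filterByExpr (minimum count 10, minimum total 15) and the scaling trimmed mean of M-values. The test was the robust quasi-likelihood fit of edgeR 4.0.16 with group as the only term (R 4.3.3), with Benjamini-Hochberg adjustment over 11388 genes and a threshold of 0.05. Standard errors and 95% intervals come from the fold change and the F statistic and are approximate; CPM are counts over scaled library size, and CPM per kilobase divides by the union of annotated exons. These intervals include the spread between libraries; floors of 3 counts cover counting error only. The fit was tested on simulated data with known changes.

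The members, arms and lists were chosen with earlier results of these data known, so no list was tested. All 40 members are named, and of each further list every called gene and up to 2 per direction with the smallest p. Alternatives were 3 scalings, DESeq2 1.42.0, limma-voom (limma 3.58.1), 2 filters, structured RNA genes left out, no robust fit, a threshold of 0.1, the replicate number as a block, each library left out, and, added after seeing the data, Hspa1a and Hspa1b summed.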

Additional observations from a re-analysis of the deposited data

How the results depend on the processing

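In none of the 18 alternatives was a member of any arm called, in 628 member values with an adjusted p; DESeq2 gave none to 20 members, which it could not call. The smallest adjusted p was 0.0745 (Hsp90ab1, total counts only). The sign of the fitted value was constant over all settings run for 21 members, Hsp90ab1, Hyou1 and Calr among them, and changed in at least 1 setting for 17, Hspa8, Hspa5 and Atf4 among them. Arm medians moved by more than the spread between libraries with total counts only (-0.24 heat shock, -0.14 ER) and, for heat shock, without control replicate 2 (0.13). Leaving out 1 library gave medians from -0.10 to 0.13 (heat shock), -0.08 to 0.15 (ER) and -0.05 to 0.16 (integrated stress response). Over all genes, 38 were called higher and 58 lower; this became 26 and 293 with total counts only, 82 and 111 by DESeq2, 131 and 197 with no filter, 25 and 30 with no robust fit, 121 and 169 at a threshold of 0.1, and 16 to 105 and 10 to 54 when a library was left out. The causes of these shifts were not tested. With the replicate number as a block, 112 genes were called higher and 153 lower, with 0 members called. Same-numbered libraries deviated together for number 2 (r = 0.228) but not for 1 (-0.00877) or 3 (0.0374). Not every library correlated best with its own number. With 3 libraries per group, and labels that do not say what a number shares, these values cannot decide whether the numbers pair the samples. Depth limits the 12 members with a mean under 30 counts per control library.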
